A study of Mus musculus with 6 samples.

Results

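The 9 genes described here carry high-energy phosphate and oxygen through the muscle cell: the creatine kinases Ckm, Ckb and Ckmt2, the creatine transporter Slc6a8, the adenylate kinase Ak1, the AMP deaminase Ampd3, the mitochondrial ADP/ATP carriers Slc25a4 and Slc25a5, and myoglobin (Mb). They were taken by gene symbol from a table of 54093 genes, in which each had a single row. All 9 were among the 12627 genes tested, those with a mean of at least 1 FPKM (fragments scaled to exon length and a factor per library). RNA-seq was performed on the right atrium (RA) of wild-type C57BL/6 mice at P21. One group of 3 libraries came from mice with volume overload (VO), made in neonatal mice of either sex by a fistula between the abdominal aorta and the inferior vena cava, and the other group of 3 libraries came from sham-operated mice. The labels do not say whether the 3 samples of a group were single or pooled animals, so p-values measure the spread between these samples. The question was which of these mRNAs differed between VO and sham RAs.

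In heart muscle, ATP made in mitochondria leaves the matrix through the ADP/ATP carriers, and a creatine kinase in the space between the mitochondrial membranes passes its phosphate to creatine. Phosphocreatine then reaches the myofibrils, where the cytosolic creatine kinase turns it back into ATP. Adenylate kinase makes ATP and AMP from ADP, AMP deaminase removes the AMP, and myoglobin binds oxygen in the cytosol of the cardiomyocyte. Ckm and Slc25a4 are the muscle forms of their families, while Ckb and Slc25a5 are forms found in many tissues.

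All 9 mRNAs had lower means in VO than in sham RAs, but none passed the threshold of 0.05 after adjustment over all tested genes. Ckm and Slc25a4 differed most, with VO levels at 0.517 and 0.508 of sham levels on the log2(FPKM + 0.1) scale, and they were the 2 members with an unadjusted p under 0.05. Ckb, Slc6a8 and Ampd3 differed least. Among all tested genes, 8.08% were lower and 3.89% higher in VO at an unadjusted p under 0.05, and 0.00792%, which is 1 gene, passed after adjustment. RA tissue was measured in bulk, so fewer cells of a type and less RNA per cell cannot be told apart.

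The start regions of both isoform pairs are shown because the ratio of the muscle form to the general form of each pair was lower in VO. The 30 bases around the TATAA motif, which is in capitals, were taken from RefSeq windows of build GRCm38.p6 and are written 5′ to 3′ on the strand of the gene. They lie at chr7:19411053-19411082 (plus strand) for Ckm, chr12:111672349-111672378 (minus strand) for Ckb, chr8:46211040-46211069 (minus strand) for Slc25a4 and chrX:36795611-36795640 (plus strand) for Slc25a5.
Ckm: taggctcctctaTATAAcccaggggcacag
Ckb: gaatgaatgggcTATAAatagccgccaatg
Slc25a4: ccgagccggggaTATAAggagggctgcggt
Slc25a5: tggctgccgctaTATAAgtcggccatttgc
The motif began 29 bases before the RefSeq start in Ckm and 28 bases before it in Ckb, and 5 bases after it in Slc25a4 and 26 bases after it in Slc25a5. On either strand and at any place, TATAA was found in 24.87% of the 32851 RefSeq windows of 300 bases. On the gene strand and 40 to 16 bases before the RefSeq start, it was found in 3.516% of windows. Of the 4 genes, only Ckm and Ckb held it there. Against the gene starts of the deposited table the positions differ. The motif of Slc25a5 lies 28 bases before that start, as does that of Ckb, while those of Ckm and Slc25a4 lie inside the listed gene. Of the bases before the RefSeq start, 222 of 250 in Slc25a4 and 69 of 250 in Ckm are exon in the table's annotation.

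The regions upstream of the creatine kinases are given further, with TATAA and the E-box CANNTG in capitals. That of Ckm is chr7:19410844-19411024 (plus strand), which lies inside the gene as the table lists it and ends at the base before an exon of the table's annotation, and that of Ckb is chr12:111672339-111672588 (minus strand), which ends at the base before the gene.
Ckm: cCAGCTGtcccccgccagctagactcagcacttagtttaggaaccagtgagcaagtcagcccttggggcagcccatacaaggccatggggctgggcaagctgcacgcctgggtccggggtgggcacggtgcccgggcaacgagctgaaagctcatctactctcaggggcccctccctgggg
Ckb: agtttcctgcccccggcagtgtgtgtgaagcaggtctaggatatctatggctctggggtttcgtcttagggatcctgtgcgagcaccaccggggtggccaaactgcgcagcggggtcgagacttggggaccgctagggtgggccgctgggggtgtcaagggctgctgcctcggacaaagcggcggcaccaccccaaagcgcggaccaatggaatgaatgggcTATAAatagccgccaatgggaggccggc
In the 250 bases before the RefSeq start, CANNTG on either strand occurred 1 time in Ckm, 0 times in Ckb, 1 time in Slc25a4 and 2 times in Slc25a5, against 66.22% of all windows with at least 1. The letters CATTCC occurred once each in Ckb and Slc25a5 (12.64% of windows), CCAAT occurred 2 times each in Ckb and Slc25a4 (33.85%), and a MEF2 site that overlaps the TATAA occurred in Ckb (2.919%). AAGGTCA and the strict CArG box pattern CCWWWWWWGG (W being A or T) were in none of these 4 windows and in 4.079% and 1.467% of all windows. The Ckm stretch ccatacaagg, printed above, misses that pattern by 1 base, and such near matches were not counted. Windows were found for 8 of the 9 members, the exception being Slc6a8.

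Creatine kinases were the first step examined. Ckm (chr7:19404776-19422841, plus strand), the cytosolic muscle enzyme, measured 199 FPKM, 143 FPKM and 143 FPKM in sham 1 to 3 and 56.4 FPKM, 101 FPKM and 98.4 FPKM in VO 1 to 3. The groups did not overlap, with sham 1 above the other sham libraries and VO 1 below the other VO libraries. The mean was 162 ± 32.3 FPKM in sham and 85.2 ± 25.0 FPKM in VO (SD, n = 3 each). Its log2 fold change was -0.95 ± 0.26 (SE), with an unadjusted p of 0.0074 and an adjusted p of 0.373 (limma, Benjamini-Hochberg). Without overlap between the groups, 12.9% of all tested genes were lower and 8.25% were higher in VO.

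Ckb (chr12:111669361-111672338, minus strand), the brain-type cytosolic enzyme, measured 30.0 FPKM, 27.5 FPKM and 24.0 FPKM in sham and 23.2 FPKM, 25.1 FPKM and 30.4 FPKM in VO. The groups overlapped over most of their range, and VO 3 was the highest of all 6 libraries. The log2 fold change was -0.05, with a 95% interval of -0.39 to 0.28 and an adjusted p of 0.875 (limma). This sign turned under TPM scaling (0.08), under quantile normalization (0.04), without sham 1 (0.02) and without VO 1 (0.03). Ckmt2 (chr13:91853387-91876885, minus strand), the sarcomeric mitochondrial enzyme, measured 343 FPKM, 285 FPKM and 257 FPKM in sham and 189 FPKM, 235 FPKM and 272 FPKM in VO. VO 3 lay above sham 3, so the groups overlapped. Its log2 fold change was -0.35 ± 0.18 (SE), with a 95% interval of -0.78 to 0.07 and an adjusted p of 0.440 (limma).

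The makeup of the creatine kinase mRNA was examined next. The ratio of Ckm to Ckb, in FPKM, was 6.64, 5.21 and 5.94 in sham and 2.43, 4.02 and 3.24 in VO. Every VO ratio was below every sham ratio, and the means were 5.93 ± 0.714 and 3.23 ± 0.795 (SD, n = 3 each). The difference in the log2 ratio was -0.90, with a two-sided exact permutation p of 0.1, the smallest that 3 libraries against 3 can give. The difference was -0.62 with sham 1 and VO 1 both left out, a choice made after seeing the data.

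Of the summed FPKM of Ckm, Ckb, Ckmt2 and the other mitochondrial form Ckmt1, Ckm made up 34.7%, 31.4% and 33.6% in sham and 20.8%, 27.9% and 24.5% in VO. Ckmt2 made up 59.9%, 62.4% and 60.6% in sham and 69.8%, 65.0% and 67.6% in VO. Ckb made up 5.23%, 6.02% and 5.66% in sham and 8.54%, 6.94% and 7.56% in VO. None of the 3 shares overlapped between the groups, Ckm being lower and the others higher in VO, each with an exact permutation p of 0.1. Ckmt2 was the most abundant creatine kinase mRNA in all 6 libraries. Its ratio to Ckm was 1.84 ± 0.135 in sham and 2.82 ± 0.517 in VO (SD, n = 3 each). The sum itself was 485 ± 77.9 FPKM in sham and 345 ± 66.7 FPKM in VO, also without overlap.

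**Figure D1:**
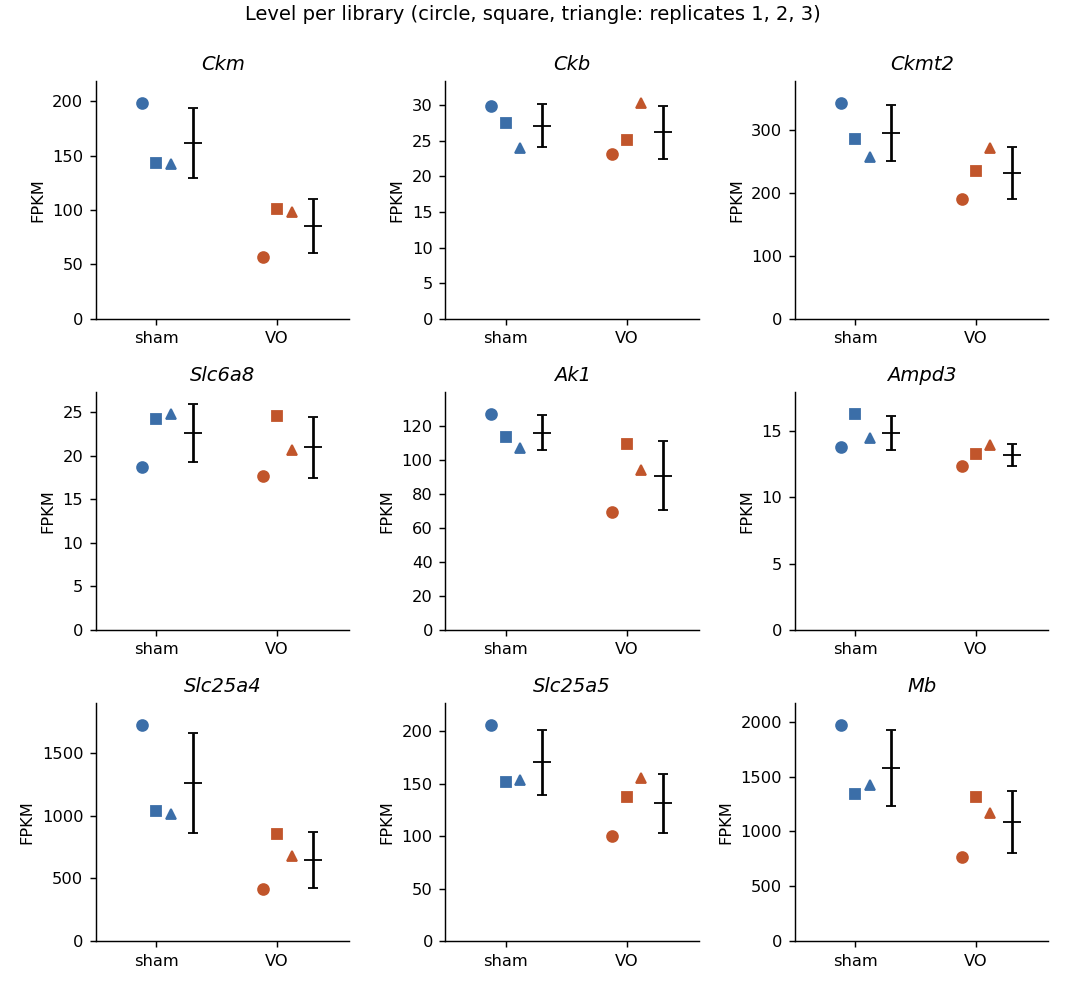
FPKM of each of the 9 genes (vertical axis, from 0) in the 3 sham and 3 VO libraries. Points are libraries, and the bar beside them is the mean with 1 SD. For Ckm, Slc25a4 and Mb every VO library is below every sham library, for the other 6 genes the groups overlap, and the VO 1 circle is the lowest point in every panel.

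**Figure D2:**
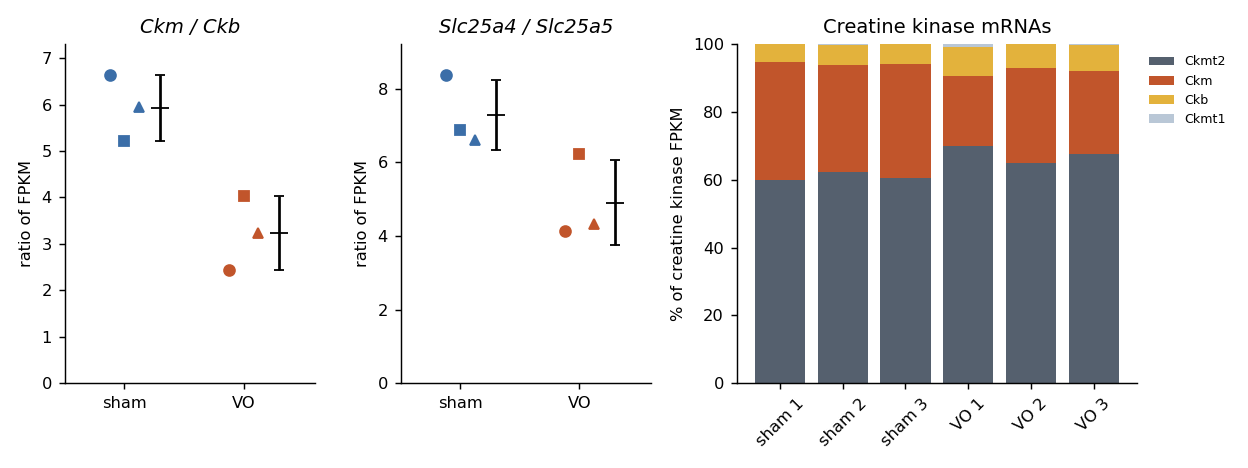
The left and middle plots give the FPKM ratios of Ckm to Ckb and of Slc25a4 to Slc25a5 per library, with the mean and 1 SD beside the points, and the right plot gives each creatine kinase as a percentage of their summed FPKM. Both ratios are lower in VO without overlap, and Ckm takes 31.4% to 34.7% of the sum in sham and 20.8% to 27.9% in VO.

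Creatine enters the cardiomyocyte through Slc6a8 (chrX:73673150-73682502, plus strand). It measured 18.8 FPKM, 24.2 FPKM and 24.8 FPKM in sham and 17.7 FPKM, 24.6 FPKM and 20.7 FPKM in VO. Sham 1 and VO 1 were the low libraries of their groups, unlike Ckm, for which sham 1 was the highest. Its log2 fold change was -0.11, with a 95% interval of -0.50 to 0.28 and an adjusted p of 0.762 (limma), and it turned to 0.03 under TPM scaling and to 0.01 without VO 1. Creatine synthesis genes were at low levels. Gatm, which makes the creatine precursor guanidinoacetate, measured 2.61 FPKM, 3.67 FPKM and 3.15 FPKM in sham and 12.3 FPKM, 2.49 FPKM and 4.30 FPKM in VO. Only VO 1 stood well above the other libraries. Of the 3 genes Gatm, Gamt and Ckmt1, 2 were tested and 0 had an unadjusted p under 0.05.

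The ADP/ATP carriers also have a muscle and a general form. Slc25a4 (chr8:46206797-46211284, minus strand) measured 1727 FPKM, 1042 FPKM and 1017 FPKM in sham and 415 FPKM, 858 FPKM and 675 FPKM in VO. All VO libraries were below all sham libraries, and sham 1 and VO 1 were the extremes. The means were 1262 ± 403 FPKM and 649 ± 222 FPKM (SD, n = 3 each). The log2 fold change was -0.98 ± 0.33 (SE), with an unadjusted p of 0.0197 and an adjusted p of 0.404 (limma). Without sham 1 the unadjusted p was 0.063 (limma), at a log2 fold change of -0.73.

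Slc25a5 (chrX:36795651-36798807, plus strand) measured 206 FPKM, 151 FPKM and 154 FPKM in sham and 100.3 FPKM, 138 FPKM and 156 FPKM in VO. VO 3 was above 2 of the sham libraries. On the log2 scale the fold change was -0.38 ± 0.21 (SE), with an adjusted p of 0.451 (limma). The ratio of Slc25a4 to Slc25a5 was 8.38, 6.88 and 6.62 in sham and 4.14, 6.22 and 4.33 in VO. The groups did not overlap, although VO 2 lay close to sham 3. The log2 ratio differed by -0.59, with an exact permutation p of 0.1, and by -0.38 with sham 1 and VO 1 both left out. Slc25a4 made up 87.8% ± 1.32 of the FPKM of Slc25a4, Slc25a5 and Slc25a31 in sham and 82.6% ± 3.06 in VO (SD, n = 3 each), and so it was the main carrier mRNA in both groups.

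Among 11 other genes for mitochondrial nucleotide and phosphate carriers, outer membrane channels and the pore regulator Ppif, 9 were tested. Of the 9, 2 were lower and 1 was higher in VO at an unadjusted p under 0.05 (limma). Of all tested genes, 8.08% were lower and 3.89% higher. The channels Vdac2 and Vdac3, through which nucleotides cross the outer membrane, had log2 fold changes of -0.39 and -0.38, with adjusted p-values of 0.406 and 0.41 (limma). Slc25a42, which carries coenzyme A and adenine nucleotides, measured 4.02 FPKM, 5.18 FPKM and 4.66 FPKM in sham and 6.46 FPKM, 7.17 FPKM and 8.86 FPKM in VO. Its groups did not overlap. It was 0.68 higher in VO on the log2 scale (limma, adjusted p = 0.332), opposite in sign to Slc25a4. The median log2 fold change of the 9 tested genes was -0.26, beside -0.01 over all tested genes.

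Ak1 (chr2:32621758-32635058, plus strand), the main cytosolic adenylate kinase of muscle, measured 127 FPKM, 114 FPKM and 107 FPKM in sham and 69.2 FPKM, 109 FPKM and 94.0 FPKM in VO. VO 2 was above sham 3, and VO 1 was far below the rest. Ak1 had a log2 fold change of -0.37 ± 0.18 (SE), with an adjusted p of 0.432 (limma). Ak1 made up 63.7% ± 1.80 of the summed FPKM of Ak1 to Ak9 in sham and 57.3% ± 6.30 in VO (SD, n = 3 each), and the groups overlapped (exact permutation p = 0.2). Of 14 other adenylate and nucleoside diphosphate kinase genes, 9 were tested. Where 8.08% of all tested genes were lower in VO at an unadjusted p under 0.05 (limma), 1 of the 9 was. This was Ak6, a nuclear adenylate kinase, at 3.22 ± 0.705 FPKM in sham and 2.21 ± 0.245 FPKM in VO (SD, n = 3 each), with an adjusted p of 0.41 (limma).

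Ampd3 (chr7:110768206-110812405, plus strand), which turns AMP into IMP, measured 13.8 FPKM, 16.3 FPKM and 14.5 FPKM in sham and 12.4 FPKM, 13.3 FPKM and 14.0 FPKM in VO. The groups touched, since VO 3 lay above sham 1. Its fold change was -0.17 on the log2 scale, with a 95% interval of -0.42 to 0.09 and an adjusted p of 0.500 (limma). Ampd3 took 81.4% ± 2.80 of the AMP deaminase FPKM in sham and 76.8% ± 2.66 in VO (SD, n = 3 each), with overlap and an exact permutation p of 0.2. The muscle form Ampd1 was at most 0.035 FPKM in any library.

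The next list held 17 genes for AMP breakdown, salvage and the purine nucleotide cycle. Its nucleotidases were taken by family, whatever their substrate. Of the 17, 16 were tested and 13 had a negative fold change. At an unadjusted p under 0.05 (limma), 5 were lower in VO and 0 were higher. The median log2 fold change of the 16 was -0.28, beside -0.01 over all tested genes. Of all tested genes, 8.08% were lower and 3.89% higher at an unadjusted p under 0.05 (limma), and 12.9% were lower without overlap. The 5 lower genes of this list, with log2 fold changes, were Nt5e, the ectoenzyme that turns AMP into adenosine (-0.61), and the mitochondrial nucleotidase Nt5m (-0.54). The others were the cytosolic nucleotidases Nt5c3b (-0.47) and Nt5c1a (-0.28), and adenylosuccinate lyase Adsl (-0.38). Nt5e measured 13.7 FPKM, 8.75 FPKM and 9.29 FPKM in sham and 6.31 FPKM, 7.48 FPKM and 6.56 FPKM in VO. All VO libraries were below all sham libraries for these 5 genes, and their adjusted p-values were 0.404 to 0.411 (limma). Among the 7 subunits of AMPK, the kinase that senses AMP, 6 were tested and 1 had an unadjusted p under 0.05. That gene, the AMP-binding subunit Prkag1, measured 17.3 FPKM, 13.2 FPKM and 15.4 FPKM in sham and 5.90 FPKM, 11.6 FPKM and 11.6 FPKM in VO. The log2 difference was -0.71 (limma, adjusted p = 0.41).

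Myoglobin was the most abundant member on average. Mb (chr15:77015487-77050670, minus strand) measured 1973 FPKM, 1343 FPKM and 1420 FPKM in sham and 768 FPKM, 1319 FPKM and 1173 FPKM in VO. The groups did not overlap, but VO 2 lay close below sham 2. The log2 fold change was -0.55 ± 0.26 (SE), with an unadjusted p of 0.0717 and an adjusted p of 0.424 (limma), and -0.15 with sham 1 and VO 1 both left out. The ratio of Mb to Slc25a4 was 1.14, 1.29 and 1.40 in sham and 1.85, 1.54 and 1.74 in VO, higher in VO without overlap (exact permutation p = 0.1). Cygb, a globin of fibroblasts and other stromal cells, was at a log2 difference of 0.13 (limma, adjusted p = 0.596).

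In order of mean sham FPKM, the members ran Mb, Slc25a4, Ckmt2, Slc25a5, Ckm, Ak1, Ckb, Slc6a8 and Ampd3. The sham ranges of the neighbours Mb and Slc25a4 overlapped, as did those of Slc25a5 and Ckm and those of Ckb and Slc6a8. In VO, Ckm (85.2 ± 25.0 FPKM) came below Ak1 (90.9 ± 20.3 FPKM), and their ranges overlapped too.

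Across the members, 9 of 9 fold changes were negative, where 6503 of the 12627 tested genes were negative, and 2 of 9 were lower at an unadjusted p under 0.05 and 0 were higher. The voom fit on recovered fragments gave 3 members lower at an unadjusted p under 0.05, Mb being the third, and 0 after adjustment. The median log2 fold change of the 9 members was -0.37, beside -0.01 over all tested genes. More abundant genes leaned lower in VO as well, and every member averaged above 5 FPKM. Among all genes at a mean of at least 5 FPKM, the median was -0.06. Of those genes, 821 were lower and 229 higher in VO at an unadjusted p under 0.05 (limma), beside 1020 and 491 of all 12627. The members averaged 14.0 to 1333 FPKM, so this cut is not matched to their levels. Under quantile normalization Mb was at -0.20, Ckmt2 at -0.06 and Slc25a5 at -0.16 on the log2 scale, with Ckm at -0.74 and Slc25a4 at -0.60. VO 1 was the lowest library for 9 of 9 members and sham 1 was the highest for 6. With sham 1 and VO 1 both left out, the log2 fold change of Ckm was -0.52 (adjusted p = 0.321, limma) and that of Slc25a4 was -0.44 (adjusted p = 0.642, limma). Both kept an unadjusted p under 0.05 (limma) there, but the libraries left out were the extremes of both genes. Taking them out narrows the spread within the groups, so these p-values do not test whether the differences hold.

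**Figure D3:**
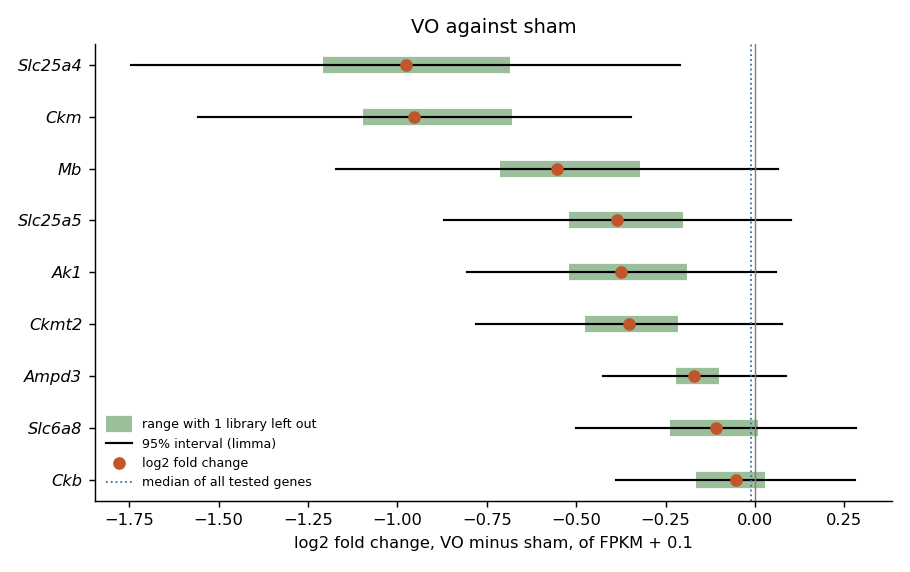
Log2 fold change of each gene, VO minus sham, of FPKM + 0.1 (horizontal axis). Points are the limma estimates, black lines their 95% intervals, green bars the range when any 1 library is left out, and the dotted line the median of all tested genes (-0.01). The intervals of Slc25a4 and Ckm lie below 0, and those of the other 7 genes include 0.

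Cell type markers differed between the libraries as well. The summed FPKM of 12 cardiomyocyte markers, atrial ones among them, was 18955 to 23363 in sham and 9507 to 16043 in VO, with VO 1 the lowest. Of the 12, 6 were lower in VO at an unadjusted p under 0.05 (limma), beside 8.08% of all tested genes. Whether the tissue was right or left atrium was not tested by this sum. The sum of 8 immune markers was 183 to 245 in sham and 716, 216 and 263 in VO 1 to 3. The sum of 7 red cell markers was 6975 in sham 1 and 8589 in VO 1, and 696 to 2384 in the other libraries. The 2 libraries that set the extremes of Ckm, Slc25a4 and Mb were therefore also those with the most red cell mRNA, and their part in the results was not tested beyond the values without them.

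Ckm is also the creatine kinase of skeletal muscle. The sum of 12 skeletal muscle markers was 11.2 to 13.8 FPKM in sham and 2.80 to 9.20 FPKM in VO, lower in VO without overlap and lowest in VO 1, as for Ckm. Only 3 of the 12 were at a mean of at least 1 FPKM and tested, and all 3 had a negative fold change (median -1.62 on the log2 scale). Of the 3, 2 had an unadjusted p under 0.05 (limma), where 8.08% of all tested genes were lower. Named after their values were seen, Tnni2 averaged 2.44 FPKM in sham and 0.753 FPKM in VO (adjusted p = 0.283, limma), Atp2a1 2.75 and 1.49 FPKM (adjusted p = 0.406, limma) and Pvalb 4.64 and 2.10 FPKM (adjusted p = 0.469, limma). The groups overlapped for Atp2a1 and Pvalb but not for Tnni2. Tnnt3, an untested gene of the same list, was not lower in VO, at 0.614 FPKM in sham and 0.631 FPKM in VO. Myh1 was at 0 in all 6 libraries, and Myh4 and Myh2 were at most 0.0107 and 0.0767 FPKM. The part of skeletal muscle RNA in the Ckm difference was not tested. The sum of 5 ventricular markers was 133 to 318 in sham and 98.3 to 150 in VO. In VO 3, the library highest for Ckb, the 6 adipocyte markers summed to 438 FPKM, against 3.5 to 7.93 FPKM elsewhere. Ucp1, the uncoupling protein of brown fat, was listed at 0 in the other 5 libraries. The 6 nerve markers summed to 51.5 FPKM in VO 3 and to 5.38 to 6.37 FPKM elsewhere. VO 3 was also the highest VO library for Ckmt2, Slc25a5 and Ampd3. Without VO 3 the log2 fold change was -0.47 for Ckmt2 and -0.52 for Slc25a5 (adjusted p = 0.419 for both, limma). With all libraries these were -0.35 and -0.38. The part of the adipocyte and nerve tissue in the levels of Ckb and of these members was not tested. The sums of fibroblast markers were 1029 to 1054 in sham and 1050 to 1459 in VO, those of endothelial markers were 221 to 239 and 234 to 245, and those of smooth muscle and pericyte markers were 235 to 306 and 181 to 250. Each group had 2 libraries with Xist and 1 with Ddx3y above 1 FPKM, a female and a male transcript, so for the X-linked Slc6a8 and Slc25a5 the groups did not differ in these counts.

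Set against the cardiomyocyte markers, the members separated. The mean log2 FPKM of the 12 markers was 0.49 lower in VO (9.32 ± 0.0955 in sham, 8.83 ± 0.328 in VO; SD, n = 3 each). The log2 fold changes of the single markers ran from -0.90 to 0.12, beside -0.95 for Ckm and -0.98 for Slc25a4. The lowest marker thus lay close to both genes, and only the mean served as the reference. Relative to the mean of the 12 markers, Ckm was lower in VO by a log2 difference of -0.46 and Slc25a4 by -0.48, both without overlap. Mb differed by -0.06 with overlap. Slc6a8 (0.38) and Ak1 (0.12) were higher in VO without overlap, and Ckb (0.44), Ampd3 (0.32), Ckmt2 (0.14) and Slc25a5 (0.11) had higher means with overlap. The sign of the last 6 depends on this reference, since their own fold changes were negative. Exact permutation p-values were 0.1 to 0.8, and 0.225 to 0.8 after adjustment over the 9 members, a comparison that cannot reach 0.05 with 3 libraries against 3.

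**Figure D4:**
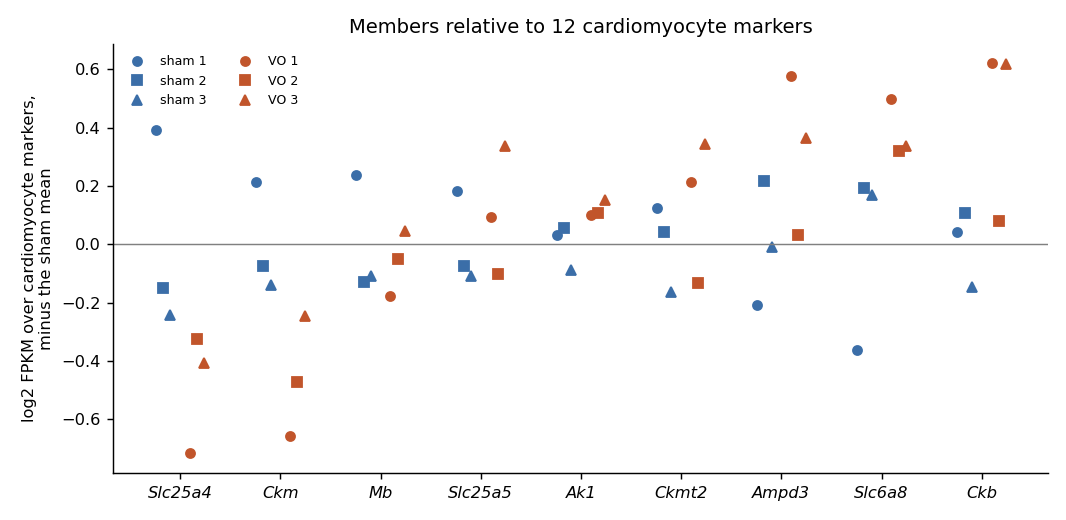
Log2 FPKM of each gene minus the mean log2 FPKM of 12 cardiomyocyte markers, shown as the difference from the sham mean of that gene (vertical axis). Points are the 6 libraries. All VO points of Slc25a4 and Ckm lie below all their sham points, those of Slc6a8 and Ak1 lie above, and those of the other 5 genes overlap.

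The profiles of the members over the 6 libraries were compared by the root mean square distance between centred log2 values, as a description over libraries that share the VO contrast. Among the members, Ckmt2 and Slc25a5 were the nearest pair (0.0750), followed by Ckm and Slc25a4 (0.129). Among all tested genes, Mrpl12 (0.0656) and Slc25a26 (0.0938) were nearest to Ckm, and Mrps28 (0.0499) and Cox6a2 (0.0513) were nearest to Slc25a4. These genes encode 2 mitochondrial ribosomal proteins, the mitochondrial carrier of S-adenosylmethionine and the muscle form of a cytochrome c oxidase subunit. Cox6a2 measured 1103 FPKM, 613 FPKM and 588 FPKM in sham and 244 FPKM, 497 FPKM and 388 FPKM in VO, with the same order of the 6 libraries as Slc25a4.

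The other members had different neighbours. Ckmt2 was nearest to Myg1 (0.0313) and Fh1 (0.0364), Slc25a5 to Akt2 (0.0283) and Ndufs3 (0.0384), and Mb to Ddrgk1 (0.0311) and Timm23 (0.0352). Fh1 is a citric acid cycle enzyme, Ndufs3 a subunit of complex I and Timm23 a channel of mitochondrial protein import. Ak1 was nearest to Galt (0.0313) and Habp4 (0.0333), Ckb to Unc50 (0.0301) and Gm11847 (0.0434), Slc6a8 to Kif13a (0.0322) and Wdtc1 (0.0388), and Ampd3 to Rmnd1 (0.0195) and Arfip2 (0.0260). Ckb, Slc6a8 and Ampd3 varied least over the 6 libraries (root mean square of 0.122 to 0.196), and a small distance is easier to reach for a profile of small range.

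The depth behind these values was 15963082 to 17237903 fragments per library, and the least counted member value was 1132 fragments, for Ckb. Where exons are shared, reads of overlapping genes may be included, or reads of the member may have gone uncounted. Strand use in counting was not given in the sources used here, and the authors' methods do not state how reads on several genes were handled. Ckm shares 451 of 2913 exon bases with the antisense A930016O22Rik, which reached 0.251 FPKM. Mb shares 412 of 1492 exon bases with Gm49540, which reached 1.11 FPKM. Ampd3 shares 195 of 5627 exon bases with Rnf141 on the opposite strand, which measured 16.1 to 21.8 FPKM, so the level of Ampd3 is the less certain. Listed pseudogenes of Ckb and Slc25a5 were at most 0.0786 FPKM.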

How the data were processed

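RNA-seq of the RA was read in 3 sham and 3 VO libraries, grouped by their treatment labels. The authors aligned reads with HISAT2 2.0.5, counted them per gene with featureCounts 1.5.0-p3 and deposited FPKM from gene length and counts. The submitters' processing notes name GRCm38, and member coordinates and lengths equalled those of its GENCODE vM21 annotation. FPKM times length gave whole fragments for 100% of values (tolerance 0.01 fragments). One incomplete line was left out.

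Median-of-ratios factors were 1 for all 6 libraries, so the deposited FPKM already carried such a scaling and were used unchanged. Fragments per FPKM and kilobase were 15.6 in sham 1 and 18.1 in VO 1. With 16494342 and 16852482 fragments in these libraries, the deposited scaling did not follow the fragment totals. Genes at a mean FPKM of at least 1 were fitted as log2(FPKM + 0.1) with limma 3.58.1 in R 4.3.3 (two-sided, lmFit and eBayes with trend). The p-values of the 12627 genes were adjusted by Benjamini-Hochberg. A fold change on this scale understates that of low genes. Ratios, shares and marker-relative levels were tested by two-sided exact permutation of the 6 libraries. The fit was tested on simulated data. Sequences came from RefSeq tables of GRCm38.p6.

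Members and lists were chosen with earlier results of these data known. Named were all members, pathway genes with an unadjusted p under 0.05 (or else the highest expressed of a list), the 2 nearest profiles per member, and markers at or near 0. Ampd1, Gamt, Ckmt1, the overlapping genes, Tnni2, Atp2a1, Pvalb, Tnnt3, Xist and Ddx3y were named besides, with their values known. Alternatives covered pseudocount, filter, scaling, variance model, voom on recovered fragments, replicate block and each library left out.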

Additional observations from a re-analysis of the deposited data

How the results depend on the processing

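Over 18 alternatives, 1 of them chosen after seeing the data (sham 1 and VO 1 both left out), Ckm had an unadjusted p under 0.05 in 18 of 18 and Slc25a4 in 15 of 18. FPKM as deposited equalled the main values and were not counted. Slc25a4 missed it under quantile normalization (log2 fold change -0.60), with the replicate block (-0.98) and without sham 1 (-0.73). The adjusted p was 0.247 to 0.693 for Ckm and 0.25 to 0.693 for Slc25a4. Of the 9 members, 2 had an unadjusted p under 0.05, against 1 under quantile normalization, 1 with the replicate block, and 1 (without sham 1) to 4 (without VO 2) with 1 library left out. The replicate number was not taken as a pairing, since deviations of same-numbered libraries correlated at -0.108 to 0.0112. Of all tested genes, 1511 had an unadjusted p under 0.05, against 932 with the replicate block, 964 with sham 1 and VO 1 left out, and 855 (without sham 1) to 1998 (without VO 2) with 1 library left out. TPM moved the median of all genes to 0.13 and the calls to 486 lower and 1085 higher, from 1020 and 491. The sign turned for Ckb under TPM (0.085), quantile normalization (0.045) and with sham 1 and VO 1 left out (0.10), with -0.17 to 0.029 when 1 library was left out. It turned for Slc6a8 under TPM (0.030), with -0.24 to 0.0083 when 1 library was left out. With the median of ratios as the reference in place of cardiomyocyte markers, Ckb (-0.054), Ckmt2 (-0.35), Slc6a8 (-0.11), Ak1 (-0.37), Slc25a5 (-0.38) and Ampd3 (-0.17) turned negative. The causes were not tested. Both isoform ratios were lower in VO under every alternative run on them. Leaving libraries out could not turn this sign, since the groups did not overlap, and the replicate block leaves the difference unchanged. Only the size could move. The log2 difference ran from -1.07 (without VO 2) to -0.62 (without sham 1 and VO 1) for Ckm to Ckb. For Slc25a4 to Slc25a5 it ran from -0.78 to -0.38 under the same 2 settings.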
